A study of Mus musculus with 8 samples.

Results

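The genes described here are 3 forkhead box O (FoxO) transcription factors, Foxo1, Foxo3 and Foxo4, and 7 genes that FoxO factors are known to switch on: Ccng2, Sesn1, Sesn3, Cited2, Txnip, Bcl6 and Klf15. The 10 members were taken from a list fixed by name, and each was read from the array probe that the platform annotation assigns to that gene alone, the brightest one where there were several. All 10 were among the 16635 genes bright enough to test, of 22180 genes with a probe of their own. They were compared in 8 primary mammary tumours of FVB mice, measured on Affymetrix whole-transcript arrays as log2 signals. In 4 tumours the genotype was NeuNT, an activated form of Neu, the rodent ErbB2 receptor. The other 4, NeuNT/H1074R, carried NeuNT together with mutant p110α, a catalytic subunit of the lipid kinase PI3K. The series title writes the mutation as H1047R, and the group keeps the spelling of its labels. The sources used here name no promoter behind the transgenes, no ages, and no statement that each tumour came from its own mouse. P-values therefore measure the spread between these tumours. Replicate numbers 1 to 4 only name the tumours of a group.

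FoxO proteins are among the transcription factors through which loss of PI3K signalling reaches the genome. When PI3K is active, the kinase AKT phosphorylates them, 14-3-3 proteins bind them and they leave the nucleus, so their targets are transcribed less. When PI3K activity drops they return and drive genes of growth arrest, oxidant defence, fuel use and receptor feedback. This control acts on the protein, and an array sees only the transcripts of the factors and of their targets. The question of the comparison is whether tumours with mutant p110α, which raises PI3K activity, had lower transcripts of FoxO-driven genes. The arrays did not measure PI3K activity in either genotype, and the NeuNT tumours of the comparison themselves carry an activated receptor.

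None of the 10 members differed between the genotypes beyond the spread of the tumours, and the 7 FoxO-driven genes did not lie on 1 side. Among these targets Sesn3, Bcl6 and Cited2 had the higher mean in NeuNT/H1074R, Ccng2, Klf15 and Sesn1 the lower, and the means of Txnip were nearly equal. In limma 0 of 10 members passed at an adjusted p of 0.05, where 0% of the tested genes were called. At an unadjusted p under 0.05 the count was 0 of 10, against 3.82% of the tested genes. That count depended on which tumours were kept. It was 1 of 10 (Foxo1) without NeuNT/H1074R replicate 1, beside 828 tested genes. It was 1 of 10 (Klf15) without NeuNT/H1074R replicate 3, beside 523 tested genes. Without NeuNT replicate 2, 3 of 10 members, Ccng2, Bcl6 and Sesn3, had an unadjusted p under 0.05 (0.00309, 0.00926 and 0.0206 in limma). They stood beside 633 of the 16635 tested genes, and 0 passed after adjustment (limma, adjusted p = 0.959 for each). With array weights the unadjusted count was also 3 of 10 (Foxo1, Sesn3 and Ccng2), beside 773 tested genes, again with 0 after adjustment. Values of the genotypes overlapped in all 10 members, while 2.69% of the tested genes had groups that did not overlap. The median log2 difference, NeuNT/H1074R minus NeuNT, was 0.004 for the 7 targets and −0.003 for all tested genes. A difference above 0 was found in 6 of 10 members and in 49.5% of the tested genes. Beyond 0.3 to either side lay 5 of the 10 members and 17.5% of the tested genes. The SD between tumours of a genotype was above the median of the tested genes, 0.248, for 7 of the 10.

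**Figure D1:**
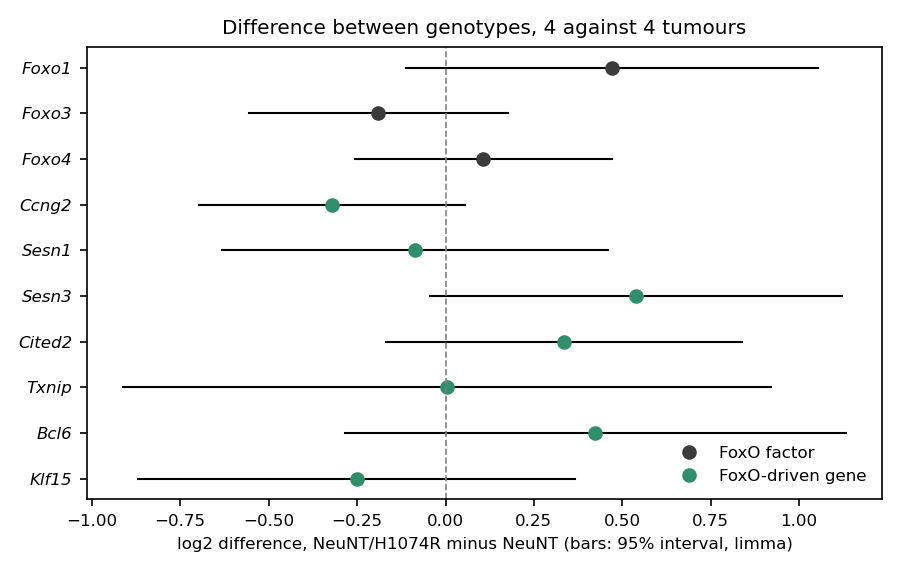
Log2 difference between 4 NeuNT/H1074R and 4 NeuNT tumours for each member (horizontal axis), with 95% intervals from limma as bars; factors are dark and targets green. Every interval includes 0, and the widest is that of Txnip, from −0.91 to 0.92.

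Promoter sequence was examined because FoxO factors bind the letters GTAAACA, the core of the forkhead site, and also the insulin response sequence, here searched as CAAAACA. Both strands of the windows of 250 bases before to 50 after each RefSeq start (build GRCm38.p6) were searched; the motifs do not overlap each other in the windows shown. Of the 10 members, 9 had a window in the table, 11 windows in all, and Foxo4 had none. GTAAACA was found in 2 of the 11, those of Txnip and Sesn1, and in 3.65% of all 32851 windows. CAAAACA was found in 1 of the 11, that of Ccng2, and in 6.28% of all windows. The 3 windows that hold a motif are printed 5′ to 3′ on the plus strand, with the motif in capitals, because these targets are the ones whose values can be set beside a match. The windows lie at chr3:96557707-96558006 (Txnip), chr10:41810324-41810623 (Sesn1) and chr5:93267323-93267622 (Ccng2).
Txnip: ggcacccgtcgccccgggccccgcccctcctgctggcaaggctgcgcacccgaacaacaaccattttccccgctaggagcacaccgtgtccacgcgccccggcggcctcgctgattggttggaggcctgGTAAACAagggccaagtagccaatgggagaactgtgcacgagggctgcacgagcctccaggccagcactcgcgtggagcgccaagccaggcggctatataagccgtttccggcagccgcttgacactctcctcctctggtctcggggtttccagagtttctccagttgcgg
Sesn1: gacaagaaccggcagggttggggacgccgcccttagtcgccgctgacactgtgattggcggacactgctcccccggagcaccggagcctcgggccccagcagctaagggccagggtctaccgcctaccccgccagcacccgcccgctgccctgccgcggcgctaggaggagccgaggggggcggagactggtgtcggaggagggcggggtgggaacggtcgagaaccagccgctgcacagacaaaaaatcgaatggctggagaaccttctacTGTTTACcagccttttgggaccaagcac
Ccng2: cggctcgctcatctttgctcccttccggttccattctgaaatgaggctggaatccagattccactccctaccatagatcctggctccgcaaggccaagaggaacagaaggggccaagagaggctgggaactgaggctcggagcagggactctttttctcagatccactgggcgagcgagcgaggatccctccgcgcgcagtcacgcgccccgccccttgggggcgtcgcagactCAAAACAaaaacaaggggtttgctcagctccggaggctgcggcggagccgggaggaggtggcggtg
The Txnip match starts 121 bases before the annotated start and the Ccng2 match 16 bases before it. The Sesn1 match is the reverse complement, TGTTTAC, and begins 22 bases after the annotated start, in the first of its 2 windows. A match is only a run of letters. The 3 genes with a match did not move as a group: their differences were 0.004 (Txnip), −0.09 (Sesn1) and −0.32 (Ccng2).

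Of the factors, Foxo1, the member best known for control by insulin and PI3K, had the largest difference. Its log2 signal was 8.89, 9.29, 9.11 and 8.43 in NeuNT replicates 1 to 4, and 8.95, 9.83, 9.11 and 9.71 in NeuNT/H1074R replicates 1 to 4. The 2 highest tumours were NeuNT/H1074R replicates 2 and 4 and the lowest was NeuNT replicate 4, while the other 5 were intermixed. Group means were 8.93 ± 0.37 (SD, n = 4) in NeuNT and 9.40 ± 0.43 (SD, n = 4) in NeuNT/H1074R. The difference of 0.47 ± 0.26 (SE), or 1.39-fold with a 95% interval of 0.925 to 2.07, did not pass (limma, adjusted p = 0.978; exact two-sided permutation p = 0.171). Without NeuNT replicate 4 the difference was 0.31, and without NeuNT/H1074R replicate 1 it was 0.62.

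Foxo3, which in many cell types drives death and arrest genes, had the opposite sign. It stood at 6.99, 7.32, 6.68 and 7.01 in the NeuNT tumours and at 6.86, 6.87, 6.92 and 6.59 in the NeuNT/H1074R tumours. NeuNT replicate 2 was the highest, and the lowest values, in NeuNT/H1074R replicate 4 and NeuNT replicate 3, came from both genotypes. The genotypes differed by −0.19 ± 0.16 (SE), short of the threshold (limma, adjusted p = 0.978; exact permutation p = 0.286), and it was −0.08 without NeuNT replicate 2 and −0.30 without NeuNT replicate 3.

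Foxo4, an X-linked factor of the same family, had the narrowest range. NeuNT tumours read 6.67, 6.06, 6.07 and 6.36, and NeuNT/H1074R tumours read 6.36, 6.49, 6.36 and 6.40. All 4 NeuNT/H1074R values lay inside the span of the NeuNT values. The genotypes differed by 0.11 ± 0.16 (SE), short of the threshold (limma, adjusted p = 0.978; exact permutation p = 0.429), with an interval from −0.26 to 0.47. It was 0.03 without NeuNT replicate 2 or replicate 3, and 0.23 without NeuNT replicate 1. Foxo6, the remaining family member, differed by 0.15 ± 0.13 (SE) and did not pass either (limma, adjusted p = 0.978).

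**Figure D2:**
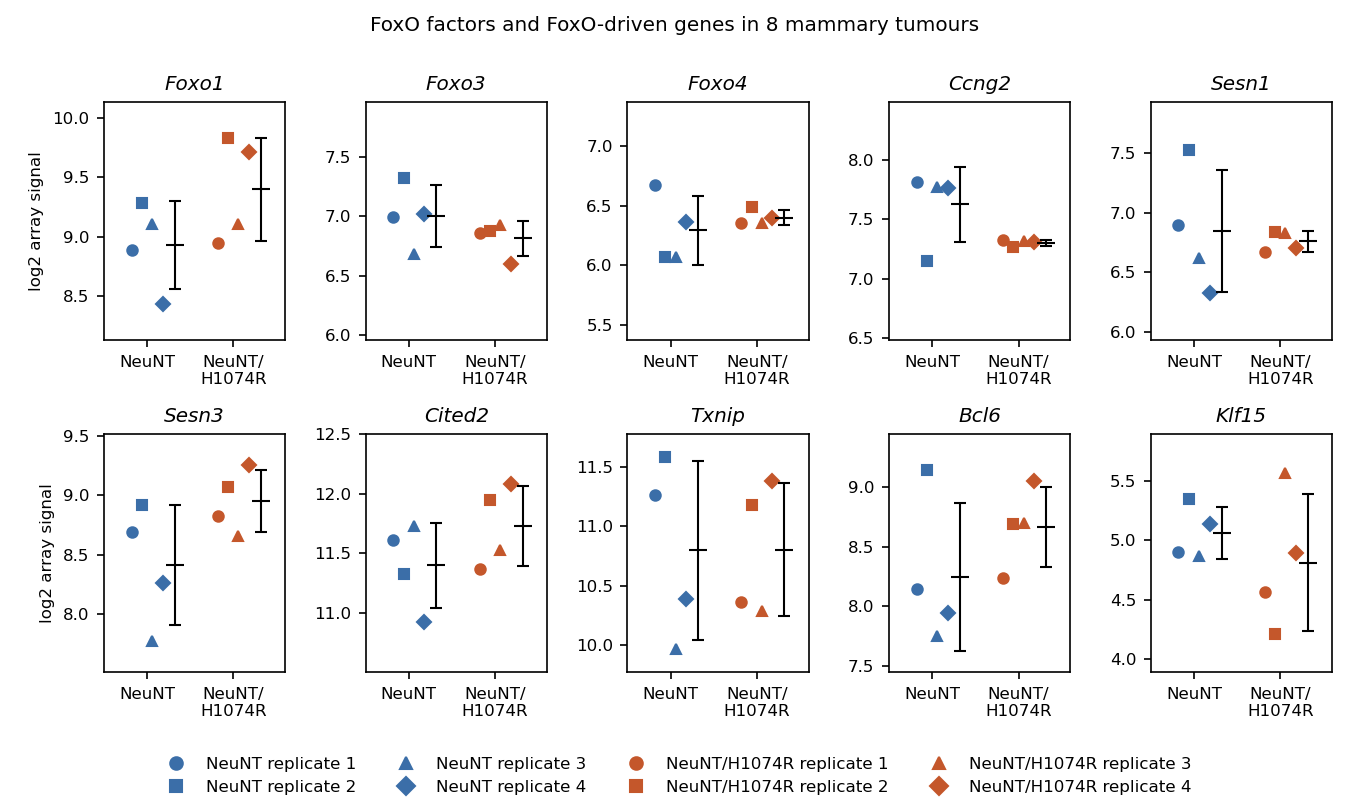
Log2 array signal (vertical axes, each spanning the same 2 log2 units) of the 10 members in 4 NeuNT (blue) and 4 NeuNT/H1074R (orange) tumours; symbols mark replicates, and the black bars give the mean ± SD. The genotypes overlap in every panel, and Ccng2 in NeuNT/H1074R is the tightest group.

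The sestrins are stress-induced proteins that restrain mTORC1, the growth kinase downstream of AKT. Sesn3 had the smallest p of the 10 members. Its values were 8.69, 8.92, 7.78 and 8.27 in NeuNT and 8.83, 9.07, 8.66 and 9.25 in NeuNT/H1074R. NeuNT replicates 3 and 4 were the 2 lowest tumours and NeuNT/H1074R replicates 4 and 2 the 2 highest, with the remaining 4 between them. Means of 8.41 ± 0.50 (SD, n = 4) and 8.95 ± 0.26 (SD, n = 4) gave a difference of 0.54 ± 0.26 (SE), or 1.45-fold with an interval of 0.970 to 2.17. It did not pass (limma, p = 0.0659, adjusted p = 0.978; exact permutation p = 0.143), and it was 0.33 without NeuNT replicate 3.

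Sesn1, which is also a p53 target, showed no such shift. The NeuNT tumours stood at 6.90, 7.53, 6.62 and 6.33 and the NeuNT/H1074R tumours at 6.67, 6.84, 6.83 and 6.70. NeuNT replicate 2 was highest and NeuNT replicate 4 lowest, with the whole other genotype between them. The genotypes differed by −0.09 ± 0.24 (SE), short of the threshold (limma, adjusted p = 0.988; exact permutation p = 0.8). It turned to 0.14 without NeuNT replicate 2 and was −0.26 without NeuNT replicate 4.

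Ccng2 encodes cyclin G2, an unconventional cyclin of arrested cells and a classical readout of FoxO activity. It was the member whose values came closest to the pattern of low targets. NeuNT replicates 1, 3 and 4 read 7.82, 7.77 and 7.76, whereas NeuNT replicate 2 read 7.15. All 4 NeuNT/H1074R tumours lay within a narrow band, at 7.32, 7.26, 7.32 and 7.31, under the first 3 NeuNT tumours and above NeuNT replicate 2. Means of 7.63 ± 0.32 (SD, n = 4) and 7.30 ± 0.03 (SD, n = 4) gave a difference of −0.32 ± 0.16 (SE), or 0.80-fold with an interval of 0.616 to 1.04. This did not pass (limma, p = 0.0849, adjusted p = 0.978; exact permutation p = 0.143). Without NeuNT replicate 2 the difference was −0.48, with an adjusted p of 0.959 in limma.

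Cited2, a co-regulator that binds CBP and p300 and limits the hypoxia response, resembled Foxo1. It read 11.61, 11.32, 11.73 and 10.92 in NeuNT and 11.37, 11.95, 11.53 and 12.08 in NeuNT/H1074R. As with Foxo1, NeuNT/H1074R replicates 2 and 4 were the 2 highest tumours and NeuNT replicate 4 was the lowest. The genotypes differed by 0.33 ± 0.22 (SE), short of the threshold (limma, adjusted p = 0.978; exact permutation p = 0.257), and it was 0.18 without NeuNT replicate 4.

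Bcl6 is a transcriptional repressor known best from germinal centre B cells, and FoxO factors raise it in several cell types. Its values were 8.15, 9.14, 7.75 and 7.94 in NeuNT and 8.23, 8.69, 8.70 and 9.05 in NeuNT/H1074R. The highest tumour was NeuNT replicate 2, but the other 3 NeuNT tumours were the 3 lowest of all. The genotypes differed by 0.42 ± 0.31 (SE), short of the threshold (limma, adjusted p = 0.978; exact permutation p = 0.286). It was 0.72 without NeuNT replicate 2 (limma, adjusted p = 0.959) and 0.26 without NeuNT replicate 3. The mean of the B cell marker list, centred on the 8 tumours, ran from −0.06 to 0.34 in NeuNT and from −0.19 to −0.01 in NeuNT/H1074R. Of its 10 markers 6 were tested, 2 higher and 4 lower in NeuNT/H1074R, and Ms4a1, Cr2 and Fcer2a were left out as dim. In bulk tumours fewer cells of a type and less RNA per cell cannot be told apart.

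Txnip, the thioredoxin-interacting protein, limits glucose uptake and is driven by the glucose sensor MondoA as well as by FoxO. It had the widest range of the 10, with 11.26, 11.58, 9.96 and 10.39 in NeuNT and 10.36, 11.18, 10.29 and 11.38 in NeuNT/H1074R. Each genotype held 2 high and 2 low tumours, with none between 10.39 and 11.18. The means, 10.80 ± 0.75 (SD, n = 4) and 10.80 ± 0.56 (SD, n = 4), were nearly equal (difference 0.004 ± 0.40 SE; limma, adjusted p = 0.999; exact permutation p = 1). With an interval from 0.532-fold to 1.89-fold, sizeable changes in either direction were not excluded. Its sign changed with single tumours, from −0.27 without NeuNT replicate 3 to 0.27 without NeuNT replicate 2.

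Klf15, a factor of amino acid and lipid metabolism that glucocorticoids and fasting induce, was the dimmest member. NeuNT tumours read 4.90, 5.34, 4.87 and 5.13, and NeuNT/H1074R tumours read 4.56, 4.21, 5.57 and 4.89. The second genotype held both the lowest tumour, replicate 2, and the highest, replicate 3. The lowest value was close to the limit of 4.06 for a gene's mean, below which genes were left out as dim. The genotypes differed by −0.25 ± 0.27 (SE), short of the threshold (limma, adjusted p = 0.978; exact permutation p = 0.457), with −0.50 without NeuNT/H1074R replicate 3 and −0.05 without replicate 2.

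NeuNT/H1074R replicates 1 and 3 had high skeletal muscle genes, with centred list means of 1.11 and 1.06 against −0.58 to −0.08 in the other 6 tumours. Of the 20 muscle markers 19 were tested, 18 of them higher and 1 lower in NeuNT/H1074R, and Mylpf was left out as dim. Basal epithelium list means also set these tumours apart within their genotype, at 0.76 and 1.06 against −1.01 and −1.06 in replicates 2 and 4. In NeuNT the basal means ran from −1.12 to 1.93. Leaving out those 2 tumours, a pair singled out from earlier results of these data, compared 2 tumours with 4. Foxo1 then differed by 0.84, Cited2 by 0.62, Sesn3 by 0.75, Bcl6 by 0.63, Txnip by 0.48 and Klf15 by −0.51. Foxo3 differed by −0.27 and Foxo4 by 0.15. Ccng2, at −0.34, and Sesn1, at −0.07, stayed close to their differences with all tumours, −0.32 and −0.09. At an unadjusted p under 0.05 there were 2 of 10 members, Foxo1 and Cited2, beside 1107 tested genes. The median of the 7 targets was then 0.48, and 0 of 10 members passed (limma, smallest adjusted p = 0.726). Klf15, which muscle expresses, was at 5.57 in replicate 3 but at 4.56 in replicate 1. What muscle tissue or basal cells added to the members' values was not tested.

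Across the tumours, the members varied in a pattern that crossed the genotypes. NeuNT replicate 2 and NeuNT/H1074R replicates 2 and 4 were the 3 highest tumours for Foxo1 and for Sesn3. For Txnip and Bcl6 the 2 highest were NeuNT replicate 2 and NeuNT/H1074R replicate 4. NeuNT replicates 3 and 4 were the 2 lowest for Sesn3 and for Bcl6. Ccng2 ran the other way, and its 2 lowest values were those of NeuNT replicate 2 and NeuNT/H1074R replicate 2.

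**Figure D3:**
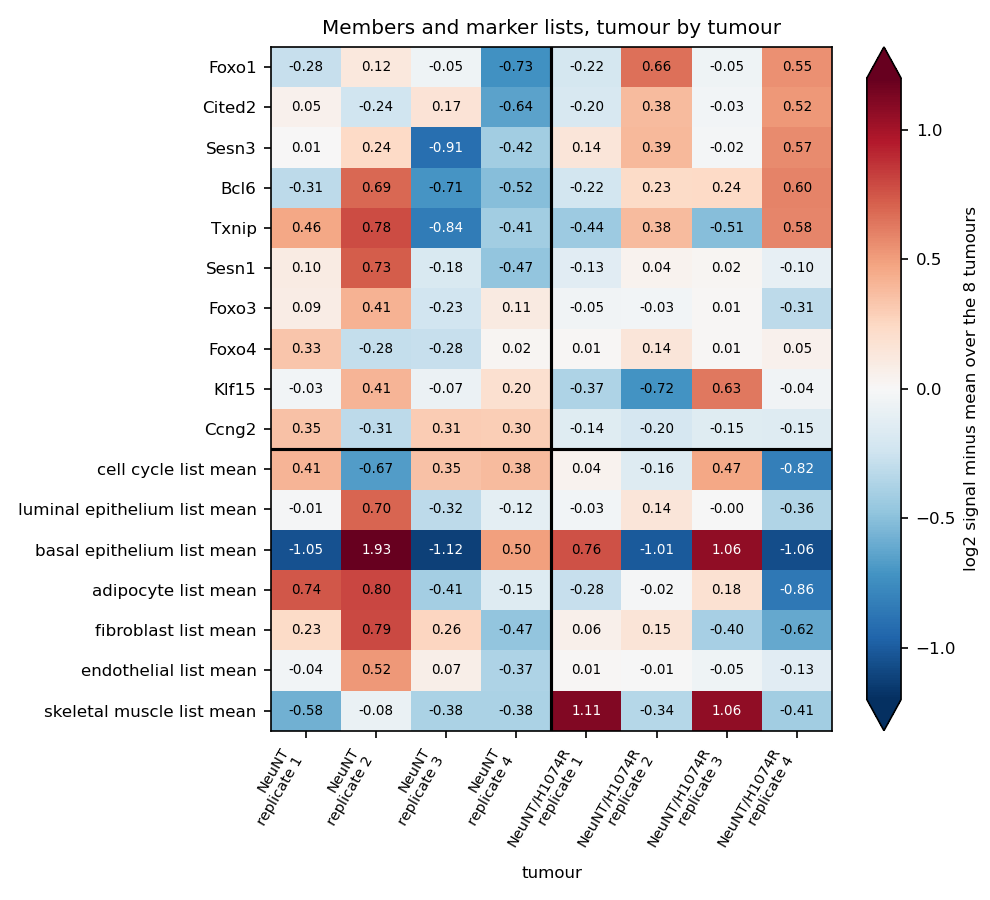
Log2 signal minus the mean over the 8 tumours (colour and printed values) for the 10 members above the horizontal line and for the means of 7 marker lists below it; columns are tumours, with NeuNT left of the vertical line. NeuNT replicate 2 and NeuNT/H1074R replicate 4 have high Bcl6 and Txnip and the lowest cell cycle list means, −0.67 and −0.82.

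Whether the targets followed the transcript of a factor was asked in 21 relations, each of 3 factors against each of 7 targets over 8 tumours. The closest was Foxo1 with Cited2 (Pearson r = 0.86, exact permutation p = 0.00818; Spearman rho = 0.62, exact permutation p = 0.115). It did not pass after adjustment over the 21 relations (Benjamini-Hochberg p = 0.172 for Pearson and 0.402 for Spearman). Without the 2 tumours farthest from the median of Foxo1, NeuNT replicate 4 and NeuNT/H1074R replicate 2, r was 0.66, and with genotype means removed it was 0.81. Among the tested genes 0.944% had an r with Foxo1 at least as high. Foxo1 had r = 0.68 with Bcl6 (exact permutation p = 0.0638; rho = 0.69, exact permutation p = 0.0694) and 0.62 with Sesn3 (exact permutation p = 0.1003; rho = 0.71, exact permutation p = 0.0576), both with Benjamini-Hochberg values of 0.351 and 0.364. Without the 2 farthest tumours these r were 0.69 and 0.48. Ccng2 went against Foxo1 (r = −0.65, exact permutation p = 0.0983; rho = −0.81, exact permutation p = 0.0218), with the same adjusted values, and r was −0.48 without the 2 farthest. Foxo3 had r = −0.64 with Cited2 (exact permutation p = 0.0820; rho = −0.76, exact permutation p = 0.0368; −0.52 without the 2 farthest) and 0.63 with Sesn1 (exact permutation p = 0.0969; rho = 0.40, exact permutation p = 0.327). The second rested on NeuNT replicate 2, since r was −0.03 without it and −0.05 without the 2 farthest. The lowest Benjamini-Hochberg p over all 21 relations was 0.172. An r with Foxo1 at least as strong, in either direction, as that of Cited2 was found in 1.59% of the tested genes. For Bcl6, Sesn3 and Ccng2 this share was 12.8%, 18.7% and 16.2%. For Foxo3 it was 12.6% with Cited2 and 13.4% with Sesn1. The 3 factors had, among themselves, r of −0.32 for Foxo1 and Foxo3, −0.01 for Foxo1 and Foxo4 and −0.14 for Foxo3 and Foxo4 (exact permutation p = 0.44, 0.979 and 0.767; 0.979 for each after adjustment over the 3) and rho of −0.33, 0 and −0.10 (exact permutation p = 0.428, 1 and 0.840). Without the 2 farthest tumours these r were −0.32, −0.25 and 0.78, so the sign for Foxo3 and Foxo4 rested on NeuNT replicate 2 and NeuNT/H1074R replicate 4, and r was 0.53 without NeuNT replicate 2 alone.

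**Figure D4:**
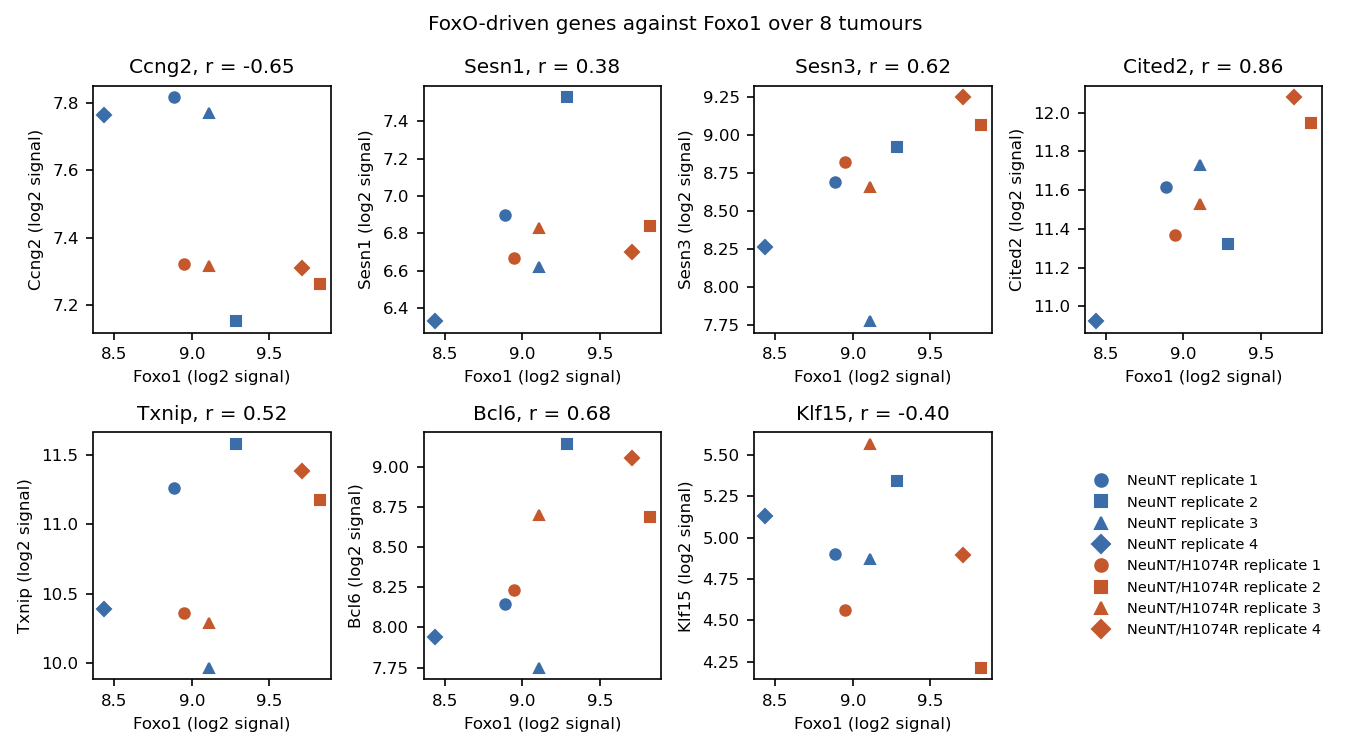
Log2 signal of each FoxO-driven gene (vertical axes) against that of Foxo1 (horizontal axes) in the 8 tumours, with Pearson r above each panel; blue is NeuNT and orange NeuNT/H1074R. Cited2 is closest to Foxo1 at r = 0.86, and Ccng2 runs against it at r = −0.65.

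The 21 pairs of targets were examined after their values had been seen. Bcl6 and Ccng2 were opposed (r = −0.86, exact permutation p = 0.00799; rho = −0.86, exact permutation p = 0.0107), and Sesn3 and Bcl6 went together (r = 0.83, exact permutation p = 0.00642; rho = 0.76, exact permutation p = 0.0368). Neither passed over the 21 pairs (Benjamini-Hochberg p = 0.0839 for both by Pearson, and 0.225 and 0.289 by Spearman). Without the 2 tumours farthest from the median of Ccng2 or of Sesn3 the r values were −0.82 and 0.61. Txnip had r = 0.77 with Sesn3 (exact permutation p = 0.0172, Benjamini-Hochberg p = 0.12; rho = 0.74, exact permutation p = 0.0458; r = 0.54 without the 2 farthest). Ccng2, which FoxO factors are also known to raise, was low in the tumours where Bcl6 was high.

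Proliferation genes were set beside the members, and none of these relations passed adjustment. The cell cycle list, 17 of 18 genes tested, had centred means from −0.67 to 0.41 in NeuNT and from −0.82 to 0.47 in NeuNT/H1074R, with 16 members lower in NeuNT/H1074R and 1 higher. Its r was −0.80 with Bcl6 (exact permutation p = 0.0192; rho = −0.52, p = 0.197), −0.73 with Txnip (exact permutation p = 0.0441; rho = −0.60, p = 0.132) and −0.70 with Sesn3 (exact permutation p = 0.0508; rho = −0.76, p = 0.0368). Over the 100 relations of 10 members with 10 marker lists these had Benjamini-Hochberg p-values of 0.479, 0.517 and 0.517. Without the 2 tumours farthest from the list's median r was −0.38, −0.37 and −0.59. Ccng2 had the opposite sign, with r = 0.68 (exact permutation p = 0.0592; rho = 0.67, p = 0.0831; 0.62 without the 2 farthest), and Foxo1 had r = −0.68 (exact permutation p = 0.0677; rho = −0.64, p = 0.0962; −0.68 without them). Their Benjamini-Hochberg p-values were 0.517 and 0.521. The other 5 members had r from −0.50 to 0.24 with the list. That of Klf15 was 0.13 over all 8 tumours and 0.90 without the 2 farthest. Foxo3 varied with adipocyte markers (r = 0.87, exact permutation p = 0.00618; rho = 0.86, exact permutation p = 0.0107; 0.83 without the 2 farthest tumours) and luminal markers (r = 0.90, exact permutation p = 0.00508; rho = 0.67, p = 0.0831; 0.53 without the 2 farthest), each with a Benjamini-Hochberg p of 0.309. With basal markers its r was 0.73 (exact permutation p = 0.0333, Benjamini-Hochberg p = 0.517), and 0.45 without the 2 farthest. Sesn1 had r = 0.91 with endothelial markers (exact permutation p = 0.0129, Benjamini-Hochberg p = 0.431; rho = 0.38, p = 0.360), which rested on the 2 farthest tumours, since r was −0.32 without them. Its r was 0.85 with luminal markers (exact permutation p = 0.0242, Benjamini-Hochberg p = 0.484) and 0.73 with fibroblast markers (exact permutation p = 0.0375, Benjamini-Hochberg p = 0.517). Without the 2 tumours farthest from each list's median these r were 0.54 and 0.49. Adipocyte list means ran from −0.41 to 0.80 in NeuNT and from −0.86 to 0.18 in NeuNT/H1074R, with 2 of 16 tested genes higher and 14 lower. Luminal list means ran from −0.32 to 0.70 and from −0.36 to 0.14, with 5 of 14 genes higher and 9 lower, and all 14 luminal genes were bright enough to test in these mammary tumours. Endothelial list means ran from −0.37 to 0.52 and from −0.13 to 0.01, with 3 of 12 genes higher and 9 lower. The part of these cell types in the members' values was not tested.

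For each factor the 3 genes of closest pattern over the 8 tumours were identified. Foxo1 was closest to Plagl1, a zinc finger gene (r = 0.99), Oxld1 (r = 0.97) and Brf1, a subunit of an RNA polymerase III factor (r = 0.97). Foxo3 was closest to Cbr2 (r = 0.96), the AMPK subunit gene Prkab1 (r = 0.95) and the ephrin receptor Epha1 (r = 0.95), and Foxo4 to the phosphatase Cdc14b (r = 0.98), the glucose-6-phosphate carrier Slc37a4 (r = 0.97) and Gins4, a DNA replication gene (r = 0.96). None of the 7 targets was among them. An r of 0.9 or more was reached by 55, 37 and 41 of the tested genes with Foxo1, Foxo3 and Foxo4, so such values are descriptions only.

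The wider FoxO target lists gave 55 tested genes of 60, of which 21 had the higher and 34 the lower mean in NeuNT/H1074R. Their median difference was −0.05, beside −0.003 for all tested genes. No gene of them passed (limma), and 1 of 55, or 1.82%, had an unadjusted p under 0.05, against 3.82% of the tested genes. That gene was Gadd45b, a stress gene of growth arrest, at 9.03, 8.34, 7.89 and 8.68 in NeuNT and 8.05, 7.83, 7.39 and 7.87 in NeuNT/H1074R. Its groups overlapped through NeuNT replicate 3 (difference −0.70 ± 0.25 SE; limma, adjusted p = 0.978; exact permutation p = 0.0571). G6pc was left out as dim, and the remaining listed genes were not analysed here.

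By function, growth arrest and DNA repair genes were higher for 2 and lower for 7 of 9, with a median of −0.04, including the CDK inhibitor Cdkn2d at −0.18 and Btg1 at −0.25. Cdkn2d had groups that did not overlap, 6.55 to 6.72 in NeuNT and 6.39 to 6.54 in NeuNT/H1074R, yet did not pass (limma, adjusted p = 0.978; exact permutation p = 0.0286, the smallest that 4 against 4 tumours can give). Groups without overlap were found in 2.69% of all tested genes. Death genes divided into 3 higher and 4 lower of 7, with a median of −0.02, Bbc3 at 0.18, Tradd at −0.18 and the death ligand Tnfsf10 at −0.17. Oxidant defence genes divided evenly, 3 and 3, with a median of 0.04, Gpx1 at 0.15, catalase Cat at 0.24 and Prdx3 at −0.11.

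Receptors and adaptors of the PI3K pathway, which FoxO raises when PI3K is blocked, were higher for 5 and lower for 5 of 10, with a median of 0.08. The insulin receptor Insr stood at 0.23, the mTORC2 subunit Rictor at 0.20 and the IGF receptor Igf1r at −0.72 ± 0.59 (SE). Protein breakdown and autophagy genes were higher for 4 and lower for 6 of 10, with a median of −0.10, Ulk1 and Gabarapl1 at −0.30 and Pink1 at −0.21. Fuel metabolism genes were higher for 2 and lower for 5 of 7, with a median of −0.16, Pck1 at −0.62, Angptl4 at −0.74 and Igfbp1 at −0.16. Pck1 is also an adipocyte gene, and adipocyte marker values are given above. Lymphocyte and vessel targets were higher for 2 and lower for 4 of 6, with a median of −0.07, Eng at −0.45, Il7r at −0.72 and Ccr7 at 0.44. None of these genes passed (limma, adjusted p = 0.978 for each named gene).

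**Figure D5:**
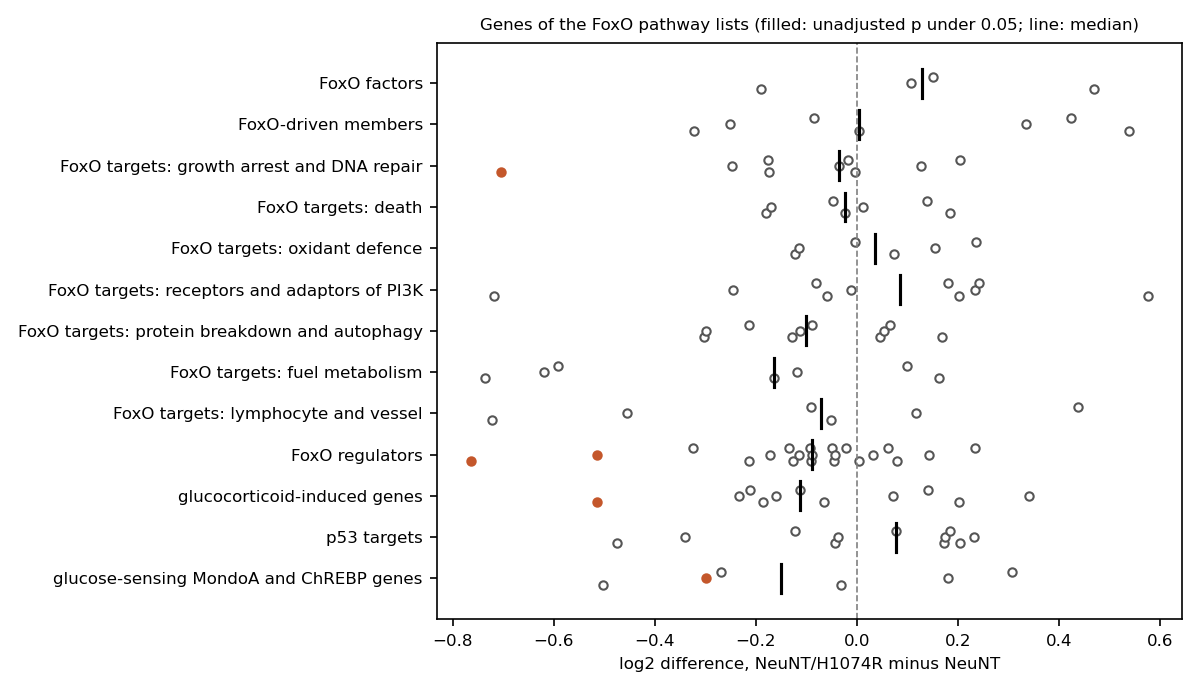
Log2 difference between genotypes (horizontal axis) for each tested gene of the FoxO lists and of 3 lists of other inputs; filled points have an unadjusted p under 0.05, and the vertical line is the list's median. Medians lie between −0.16 and 0.13, and Sgk3, Sgk1, Gadd45b and Mlx are the filled points, with Sgk1 in 2 lists.

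The genes that regulate FoxO proteins had 6 higher and 15 lower of 21 tested, with a median of −0.09. At an unadjusted p under 0.05 there were 2 of 21, both lower, or 9.52% of the list beside 3.82% of the tested genes in either direction (1.71% lower), and 0 passed after adjustment (limma). Both were serum- and glucocorticoid-regulated kinases, relatives of AKT that phosphorylate FoxO proteins downstream of PI3K. Sgk3 stood at 7.13, 6.23, 6.96 and 7.16 in NeuNT and at 6.19, 6.57, 5.62 and 6.05 in NeuNT/H1074R, overlapping through NeuNT replicate 2 (−0.76 ± 0.27 SE; limma, adjusted p = 0.978; exact permutation p = 0.0571). Sgk1 stood at 8.36, 8.80, 8.38 and 7.94 in NeuNT and at 8.22, 7.92, 7.77 and 7.52 in NeuNT/H1074R, overlapping through NeuNT replicate 4 (−0.51 ± 0.21 SE; limma, adjusted p = 0.978; exact permutation p = 0.0571). The 14-3-3 gene Ywhaq differed by −0.21.

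Other inputs to the same targets did not pass either. Glucocorticoid-induced genes, relevant to Klf15, were higher for 4 and lower for 7 of 11, with a median of −0.11, Klf9 at 0.34 and Cebpd at −0.21, and Sgk1 again of the smallest p. The p53 targets, relevant to Sesn1, were higher for 6 and lower for 5 of 11, with a median of 0.08, Phlda3 at −0.47, Zmat3 at 0.23 and Bbc3 at 0.18. Glucose-sensing genes, relevant to Txnip, were higher for 2 and lower for 4 of 6, with a median of −0.15, Tkfc at 0.31 and the Txnip relative Arrdc4 at −0.50. Mlx, the partner of MondoA, had groups that did not overlap, 7.87 to 7.97 in NeuNT and 7.57 to 7.69 in NeuNT/H1074R (−0.30 ± 0.10 SE; limma, adjusted p = 0.978; exact permutation p = 0.0286). The same held for 2.69% of all tested genes.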

How the data were processed

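Total RNA of 8 tumours was measured on 1 array each. The authors deposited 1 table of 41345 probes with log2 values from 0.887 to 13.6; the log2 scale was inferred from these values. The submitters' processing notes name the Transcriptome Analysis Console and the Affymetrix Expression Console. The sources used here give no versions, background correction or normalization. Array medians lay between 4.81 and 4.87 and no further scaling was applied. Arrays carry no depth, and their number limits the precision: the median 95% interval of a difference reached 0.395 to either side.

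The platform annotation gave 23521 probes 1 gene symbol and 1814 several, which were left out. Each gene was read from its brightest probe, and genes with a mean in the lowest 25%, under 4.06, were left out as dim. RefSeq (GRCm38.p6) held all 10 member symbols and supplied the promoter sequences. NeuNT/H1074R and NeuNT were compared with limma 3.58.1 in R 4.3.3 (lmFit, eBayes with intensity trend), two-sided, and p-values of the 16635 tested genes were adjusted together (Benjamini-Hochberg, threshold 0.05). Exact permutation tests, all two-sided, enumerated 70 group assignments or 40320 pairings (scipy 1.17.1), and the smallest p for 4 against 4 is 0.0286. The fit was tested on data simulated for this comparison over 16635 genes with 200 changed, in 10 runs. It recovered 17.8% of genes changed 1.5-fold, 56.4% of genes changed 2-fold and 86.8% of those changed 4-fold. The changed genes were 1.5-fold, 2-fold, 4-fold or 8-fold in equal numbers, and residual SDs were shuffled across genes. Strong changes in that mix ease the adjustment, and 0 genes passed in the real data, so these rates may be too high here. They also do not apply to the members one by one, since 7 of the 10 had an SD above the median.

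Members, lists and alternatives were chosen with earlier results of these data known. All 10 members are described. Of each pathway list up to 3 genes of smallest unadjusted p are named, and for each factor the 3 genes of highest correlation, passing over predicted and clone names and olfactory and vomeronasal receptors. The alternatives left out each tumour, left out both tumours with high muscle genes, and changed normalization, centring, the filter on dim genes, probe averaging, the variance model, array weights and the test. The marker lists were skeletal muscle, adipocyte, fibroblast, endothelial, T and NK cell, B cell, macrophage, luminal, basal and cell cycle genes.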

Additional observations from a re-analysis of the deposited data

Results flagged for a closer look

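Among the 20 groups of 4 values (10 members in 2 genotypes) 1 held a value far from the others by Dixon's test, which flags about 1 in 20 groups by chance. Ccng2 in NeuNT replicate 2 was at 7.15, against 7.76 to 7.82 in the other NeuNT tumours, and the gap was 0.919 of the group's range. The same tumour had the highest Sesn1, Foxo3, Bcl6 and Txnip values of the 8, a basal epithelium list mean of 1.93 against −1.12 to 1.06 in the other tumours, and a cell cycle list mean of −0.67.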

How the results depend on the processing

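Leaving out single tumours or changing the processing moved no member past the threshold. Of 159 alternative values of single members, 153 kept their sign and their side of the threshold and 6 changed sign, with a smallest limma adjusted p of 0.726; 10 of them had an unadjusted p under 0.05. The sign changes were those of Sesn1, from −0.26 to 0.14 over the fits without 1 tumour, and of Txnip, from −0.27 to 0.27 over those fits and −0.0163 with arrays centred on their medians. The median of the 7 targets ran from −0.16 to 0.27 without single tumours and was 0.48 without both tumours with high muscle genes, a fit that compares 2 tumours with 4. Over all genes 0 passed in limma in each alternative and in the ordinary two-sample test, which gave 714 at an unadjusted p under 0.05 against 635 in limma, and limma gave 369 to 925 without single tumours. Klf15 was not tested when the lower 50% of genes were left out as dim. No paired analysis was possible because no number in the labels links a tumour of one genotype to a tumour of the other. Array normalization is unstated, so differences are relative to the other probes of an array, and low signals such as that of Klf15 may understate a change.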

Other observations

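The difference in spread between the genotypes was not tested. The SD was lower in NeuNT/H1074R than in NeuNT for 8 of 10 members, all but Foxo1 and Klf15, beside 61.9% of the tested genes. The Ccng2 SD of 0.0264 in NeuNT/H1074R was reached or undercut by 0.391% of the tested genes, a comparison chosen after the values were seen.

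Probes not used for the members ran close to those used. The second Foxo1 probe differed by 0.50 between the genotypes, beside 0.47 for the brighter one. A probe that the annotation shares between Txnip and Gm15441 differed by 0.04.

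Marker lists whose genes were not counted above had 0 genes past the threshold (limma). Fibroblast genes were higher for 2 and lower for 14 of 16 tested (median −0.26), macrophage genes for 1 and 11 of 12 (−0.34), T and NK cell genes for 1 and 8 of 9 (−0.21) and basal genes for 2 and 7 of 9 (−0.38). Of the 15 T and NK cell genes listed, Ncr1, Klrb1c and Gzma were left out as dim. The 2 basal genes with the higher mean were the keratins Krt17 (1.95 ± 1.75 SE) and Krt14 (0.83 ± 1.72 SE). NeuNT replicate 2 had the highest basal list mean, 1.93.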
